A study of Mus musculus with 16 samples.

Results

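Gastrocnemius muscle of BALB/c-labelled mice with CT26 tumors, the CAC mice of the colon cancer model, was compared with gastrocnemius of BALB/c-labelled mice without tumors, the NOR mice. The members are the 4 libraries that the titles number as replicates 3 and 4 of CAC and of NOR, of 16 libraries in the whole series, and CAC and NOR have 2 mice each. CT26 is a mouse colon carcinoma line, and its cells were injected under the skin of the right flank on day 0, whereas NOR mice received PBS. From day 9, CAC and NOR mice were injected with PBS into the peritoneum daily, and the calf muscle was taken on day 30. The AM mice 3 and 4 carried CT26 tumors and received amiloride at 2 mg/kg daily from day 9, and the KD mice 3 and 4 carried tumors grown from Rab27 knock-down CT26 cells and received PBS. These 4 libraries are shown beside the members. The 8 libraries numbered 1 and 2 come from the C57BL/6-labelled mice of the LLC (Lewis lung carcinoma) model, with the same 4 conditions. Per the methods the mice were males aged 6 to 8 weeks, whereas the growth protocol lists BALB/c mice of both sexes. The tumor sits outside the muscle, 1 tumor line stands for the model, and the host strain changes with the tumor line between the models. The labels do not say that RNA of several animals was pooled.

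Cachexia is the wasting of muscle and fat that accompanies many tumors. In wasting muscle, FoxO transcription factors are known to switch on the ubiquitin ligases Atrogin-1 (Fbxo32) and MuRF-1 (Trim63), which mark proteins of the myofiber for the proteasome, and autophagy removes organelles. Interleukin-6, acting through its receptor and STAT3, and glucocorticoids are known systemic signals upstream of these genes. The gastrocnemius is built mostly of fast fibers, which contract on ATP from glycogen and glycolysis and release calcium from a sarcoplasmic reticulum rich in calsequestrin.

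Several checks of the libraries stand before the results. The 4 libraries held 43676601 to 59807648 counts on genes, within a range of 35913190 to 61032708 over all 16, and no pair of a group differed by as little as counting noise, with a chi-square per degree of freedom of at least 63.1. In CPM (counts per 1000000 of a library's effective size), the 8 markers of skeletal muscle summed to 100607 and 91980 in NOR 3 and NOR 4. In CAC 3 and CAC 4 they summed to 52323 and 79968, below both NOR libraries. Epithelial and colon markers summed to between 6.23 and 10.8 CPM in the 4 libraries. The strain label was not mirrored in gene levels. Of 13245 genes with a mean of at least 1 CPM, 0 were higher in all 8 BALB/c-labelled libraries and 1 (Prrt4) was lower in all 8. By a gap of at least 2 log2 units between 2 sets of libraries, 21 genes set CAC 4, AM 3, AM 1, and KD 1 apart from the other 12 libraries. Gm10260 counted 19813 reads in CAC 4 and 52, 60, and 100 in NOR 3, NOR 4, and CAC 3. Nnt, a mitochondrial enzyme gene of which C57BL/6J mice carry a deletion, did not reach this gap. At 1 of its 2 identifiers it counted 7114 in CAC 4 and 418, 479, and 329 in NOR 3, NOR 4, and CAC 3. At that identifier it stood at 44.8 CPM in KD 1 and 21.7 CPM in KD 2. Another 71 genes, among them B and T cell genes, were near 0 in CAC 4, KD 3, NOR 1, CAC 1, and KD 2. Cd79a, part of the B cell receptor, counted 13 reads in CAC 4 and 3365, 3573, and 4993 in NOR 3, NOR 4, and CAC 3. By the same gap NOR 3 and NOR 4 stood above the other 14 libraries, the other NOR libraries included, in 6 genes, namely Hspa1a, Hspa1b, Dnajb1, Npas4, Mmp10, and Gm10382. CAC 3 stood apart in 23 genes, 22 of them higher (Gzmb, Cxcl9, and Zbp1 among them), and CAC 4 in 14. Beside them, KD 3 had 0 counts of the 4 Y-linked genes Ddx3y, Eif2s3y, Kdm5d, and Uty, which the other 15 libraries expressed. Where a pair of values is given for a group, the first is mouse 3 and the second mouse 4 (in the LLC model 1 and 2). Groups were kept as labelled, and results are given with and without the libraries concerned.

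**Figure D1:**
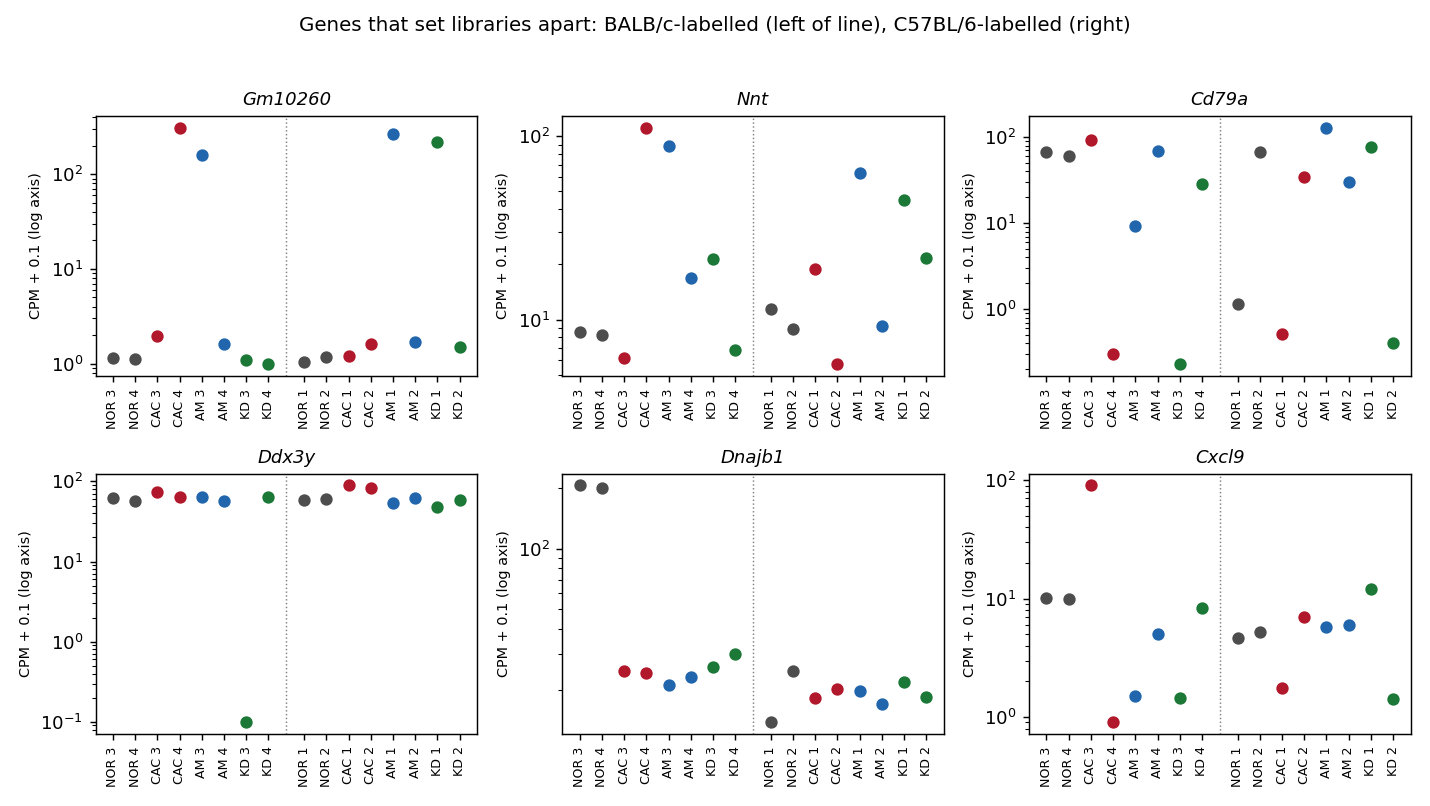
Levels of 6 genes in each of the 16 libraries, by group and replicate, on a log axis of CPM + 0.1, with 1 point per library. Gm10260 and Nnt are high in CAC 4, AM 3, AM 1, and KD 1, Cd79a is near 0 in CAC 4, KD 3, NOR 1, CAC 1, and KD 2, Ddx3y is at 0 in KD 3, Dnajb1 is high in NOR 3 and NOR 4, and Cxcl9 is highest in CAC 3.

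The first comparison asked which genes differed between CAC and NOR mice of the CT26 model. Genes were called when the Benjamini-Hochberg adjusted p (FDR) of edgeR's quasi-likelihood test was at most 0.05 and the fold change at least 1.5, in 1 fit of all 16 libraries and 8 groups. Of 15652 genes tested, 57 were higher in the CAC mice (0.364%) and 224 lower (1.43%), together 281 (1.80%), and the median log2 fold change of all genes tested was -0.0062. Among the genes that rose were those of metallothioneins, the interleukin-6 receptor, the cell cycle inhibitor p21, and acute-phase serum amyloid A. Those that fell included genes of glycolysis, glycogen breakdown, calcium storage, and polyamine synthesis. The median log2 fold change was 1.36 for the 57 genes and -1.68 for the 224 genes. With 2 mice per group, a gene that was not called may still differ. An unadjusted p under 0.05 was reached by 1158 genes in the higher direction (7.40%) and 1351 in the lower (8.63%). Of all genes tested, 24.4% were higher in both CAC mice than in both NOR mice and 26.5% lower, and such counts over the gene lists are to be read beside these shares, as are counts of called members beside 0.364% and 1.43%. A count of called members covers only the genes of its list, and genes of the same kind outside a list are named where they were called, chosen after their values were seen. In bulk RNA, fewer cells of a type and less RNA per cell cannot be told apart.

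All 57 and 224 genes kept their direction when NOR 3, NOR 4, CAC 3, or CAC 4 was left out in turn, but 0 of the 57 and 20 of the 224 kept their call in all 4 omissions. Without NOR 3, 1 of the 57 and 25 of the 224 genes were still called, without NOR 4 2 and 68, without CAC 3 6 and 23, and without CAC 4 4 and 65. The numbers of genes called in all were then 29, 70, 36, and 93. Omitting libraries outside the comparison, which enter the estimate of the spread, moved the count as well, from 159 without CAC 2 and 160 without CAC 1 to 673 without KD 1 and 680 without KD 2. In each called gene both CAC mice lay on the same side of both NOR mice, which the call itself selects for at 2 against 2, so nothing is read from it. The split between directions rested on the scaling. With library sizes taken as total counts only, in place of TMM (trimmed mean of M-values), 527 genes were higher and 249 lower, and the median of all genes moved to 0.203. The 57 and 224 genes all kept their direction under that scaling. The 10 genes with most counts took 23.0% and 21.3% of the NOR libraries and 13.9% and 17.0% of the CAC libraries.

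**Figure D2:**
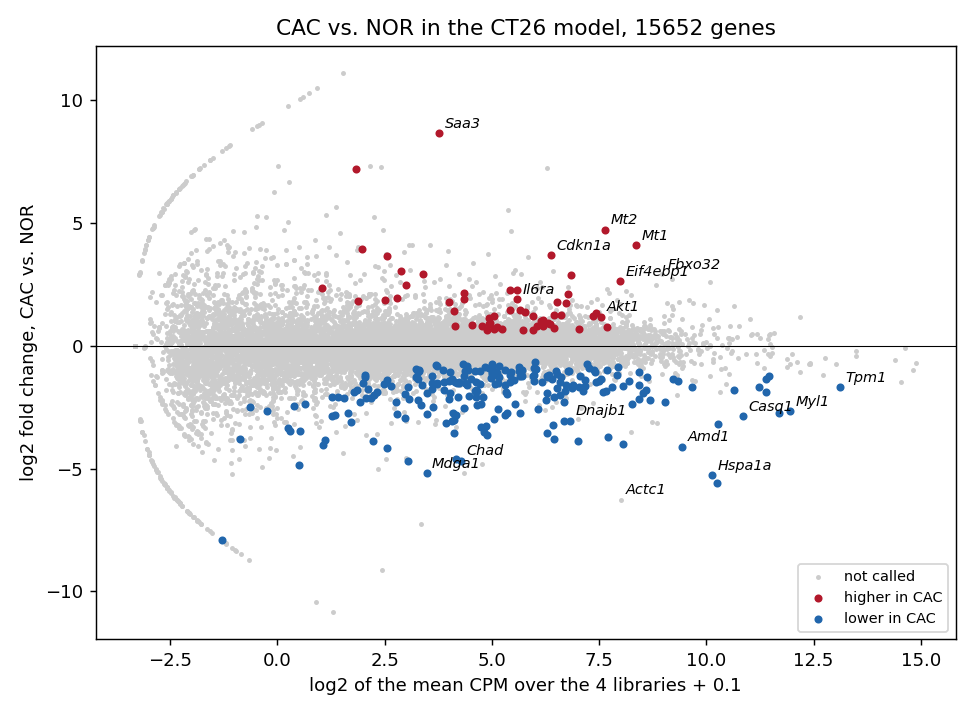
Log2 fold change of CAC against NOR mice of the CT26 model (y axis) against mean log2 CPM (x axis) for the 15652 genes tested, with called genes in color. The 224 genes that fell outnumber the 57 that rose under TMM scaling, a split that turns to 527 higher and 249 lower with total counts.

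The genes of muscle protein breakdown were examined first, with the ubiquitin ligases that define the atrophy program. Fbxo32 (chr15:58175879-58214932, GRCm38) stood at 93.8 and 142 CPM in NOR mice and 896 and 880.3 CPM in CAC mice, and Trim63 (chr4:134315120-134329629) at 272 and 346 CPM in NOR mice and 1954 and 1790.2 CPM in CAC mice. Both ligases were several times higher in both CAC mice than in both NOR mice, and neither passed the test, with log2 fold changes (± SE) of 2.91 ± 0.79, FDR = 0.102, and 2.60 ± 0.77, FDR = 0.131. Called within the list of 24 FoxO targets and atrophy ligases were 3 other members, none of which is a ubiquitin ligase, and 0 fell. Cdkn1a, encoding p21, showed 10.9 and 12.9 CPM in NOR mice and 111 and 195 CPM in CAC mice (log2 fold change 3.68 ± 0.57, FDR = 0.0133). Eif4ebp1, a repressor of cap-dependent translation, showed 56.3 and 85.4 CPM in NOR mice and 434 and 434 CPM in CAC mice (2.61 ± 0.38, FDR = 0.0105). Sesn1, a stress-induced inhibitor of mTORC1, showed 42.3 and 55.5 CPM in NOR mice and 129.7 and 197 CPM in CAC mice (1.74 ± 0.36, FDR = 0.0394). In all, 14 of the 24 were higher in both CAC mice than in both NOR mice, 2 were lower, and the median log2 fold change was 0.27, where 24.4% of all genes were higher in both and 26.5% lower. With DESeq2 7 members were called higher and 1 lower, and with total counts 8 and 1. With the 8 BALB/c-labelled libraries alone 4 were called higher and 1 lower. Outside the list, the muscle ubiquitin ligase gene Trim55 (MuRF-2) was called lower, at 0.429 times the NOR level. Each of the 3 calls was lost in at least 1 omission, with an FDR without NOR 3 of 0.162, 0.143, and 0.331.

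The sequence before the start of Trim63 is shown because it carries a match to the FoxO core motif GTAAACA, here on the reverse strand and in capitals, starting 194 bases before the RefSeq start (GRCm38.p6, chr4:134314870-134315119, plus strand). Both strands were searched, and 3.17% of 32851 RefSeq promoter windows of 250 bases held the motif. A match describes these letters and is not a bound site.
Trim63: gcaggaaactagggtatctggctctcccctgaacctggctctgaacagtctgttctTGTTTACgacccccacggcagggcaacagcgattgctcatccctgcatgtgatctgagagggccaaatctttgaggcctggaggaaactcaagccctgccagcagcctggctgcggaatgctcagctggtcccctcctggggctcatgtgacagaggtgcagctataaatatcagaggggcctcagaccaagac

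Proteasome subunits lay a little higher as a group. Psma7, a subunit of the core ring, rose from 98.7 and 99.0 CPM to 254 and 238 CPM (log2 fold change 1.32 ± 0.23, FDR = 0.0203) and was the 1 member called of 32, beside 0.364% of all genes called higher. Without NOR 3 its FDR was 0.18. The count of called subunits moved to 8 higher with DESeq2 and 14 higher with total counts, and to 0 without any 1 of the 4 libraries. Psmd4 and Psmd2, of the regulatory particle, stood at 154 and 155 CPM in NOR mice and 377 and 356 CPM in CAC mice, and at 251 and 259.5 CPM in NOR mice and 550.4 and 436 CPM in CAC mice, with FDR values of 0.066 and 0.118. A higher level in both CAC mice than in both NOR mice was found for 30 of the 32 subunits and a lower one for 0, beside 24.4% and 26.5% of all genes, with a median log2 fold change of 0.51 (0.74 with total counts, where the median of all genes was 0.203). Of 31 autophagy and mitophagy genes 0 were called in either direction (10 had an unadjusted p under 0.05, and 3 were called higher with DESeq2 and 8 with total counts), 20 were higher in both CAC mice and 3 lower, and the median was 0.30. Ctsl, a lysosomal protease, measured 122 and 113 CPM in NOR mice and 194 and 431 CPM in CAC mice (FDR = 0.0579), and Bnip3, a mitophagy receptor, 120.3 and 167 CPM in NOR mice and 356 and 361 CPM in CAC mice (FDR = 0.198).

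**Figure D3:**
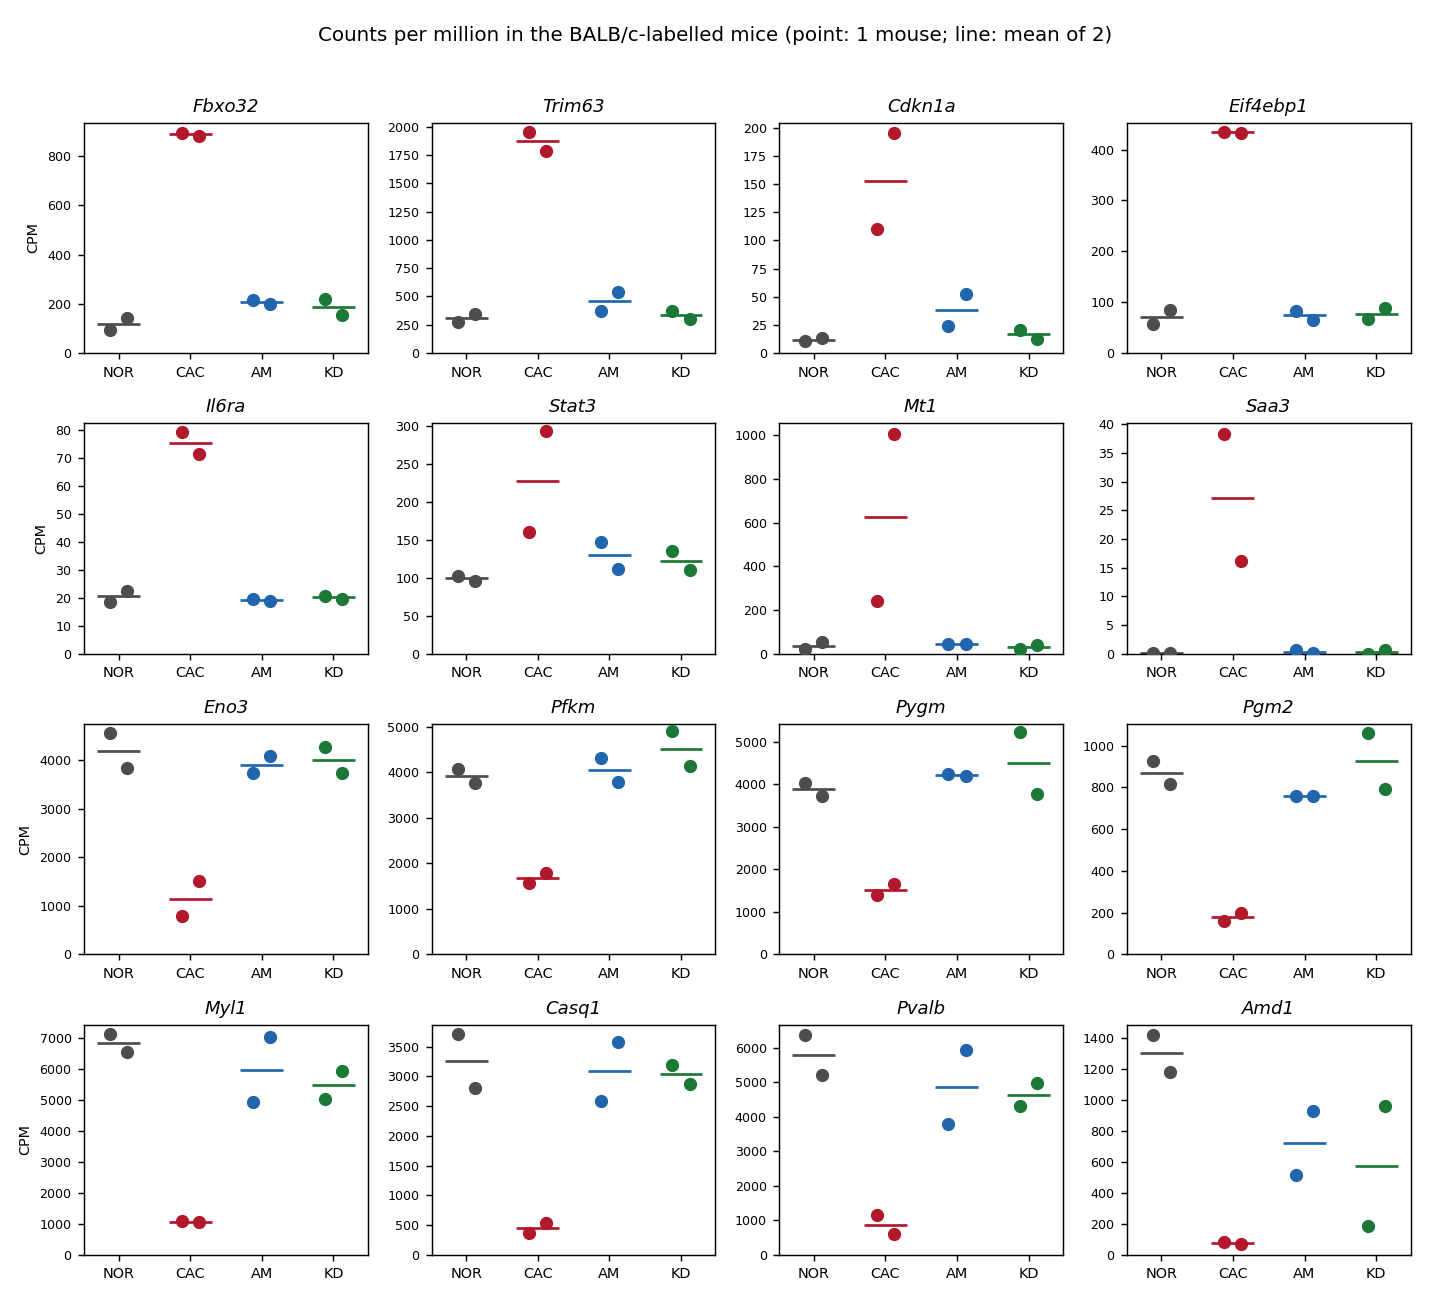
CPM of 16 genes in the 8 BALB/c-labelled mice, with 1 point per mouse and a line at the mean of the 2 mice of a group. Fbxo32, Trim63, Cdkn1a, Eif4ebp1, Il6ra, Stat3, Mt1, and Saa3 are higher in both CAC mice than in both NOR mice, and Eno3, Pfkm, Pygm, Pgm2, Myl1, Casq1, Pvalb, and Amd1 are lower.

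Within interleukin-6 signaling, 3 of 29 genes rose and 0 fell, beside 0.364% and 1.43% of all genes. Il6ra, the receptor chain that binds interleukin-6, stood at 18.5 and 22.3 CPM in NOR mice and 79.2 and 71.2 CPM in CAC mice (log2 fold change 1.88 ± 0.29, FDR = 0.0127), and the 2 mice of each group lay close together. Stat3, the transcription factor downstream, stood at 102 and 96 CPM in NOR mice and 159.8 and 293 CPM in CAC mice (1.20 ± 0.25, FDR = 0.0447), higher in CAC 4 than in CAC 3. Il6st, the shared signaling chain, did not pass the test at 226 and 192 CPM in NOR mice and 209.7 and 290.0 CPM in CAC mice, and neither did the kinase Jak1 at 276 and 255 CPM in NOR mice and 203 and 172 CPM in CAC mice (FDR = 0.591 and 0.164). Saa3, an acute-phase serum amyloid gene, had 4 and 3 counts in the NOR libraries and 2073 and 1033 in the CAC libraries, or 0.0807 and 0.0512 against 38.2 and 16.2 CPM (FDR = 0.0345). At so few counts in NOR the size of its fold change is not given. These were the 3 calls of the IL-6/STAT3 and acute-phase list. DESeq2 called 11 higher and 1 lower, and total counts 5 higher. The 8 BALB/c-labelled libraries alone, and the replicate number as a block, each left 1 higher. Its median log2 fold change was 1.20, with 17 members higher in both CAC mice and 3 lower (24.4% and 26.5% of all genes). The FDR without NOR 3 was 0.155 for Il6ra, 0.279 for Stat3, and 0.323 for Saa3. Without CAC 4, the log2 fold change of Stat3 was 0.75 (FDR = 0.154). Neutrophil markers summed to 24.0 and 38.6 CPM in the NOR libraries and 218 and 278 CPM in the CAC libraries. In AM 3 and KD 4 they summed to 239 and 291 CPM, and in AM 4 and KD 3 to 20.5 and 16.8 CPM. Saa3 stood at 0.587 CPM in AM 3 and 0.544 CPM in KD 4. The part of neutrophils in the result was not tested.

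Metallothioneins bind zinc and copper and are induced by metals, glucocorticoids, and interleukin-6. Mt1 stood at 19.6 and 54.3 CPM in NOR mice and 243 and 1006 CPM in CAC mice (log2 fold change 4.08 ± 0.76, FDR = 0.0273), and Mt2 at 8.05 and 21.1 CPM in NOR mice and 177 and 593 CPM in CAC mice (4.72 ± 0.87, FDR = 0.0256). CAC 4 stood above CAC 3 in both genes, and the AM mice (43.7 and 43.6 CPM of Mt1) and the KD mice (21.5 and 41.2 CPM) lay within the range of the NOR mice for that gene. Slc39a14, the zinc importer ZIP14, stood at 13.7 and 19.2 CPM in NOR mice and 50.5 and 108 CPM in CAC mice (2.26 ± 0.38, FDR = 0.019). These 3 genes rose among 8 members of the metallothionein and zinc transport list, and 0 fell (median 0.50), beside 0.364% of all genes called higher. With the 8 BALB/c-labelled libraries alone, 0 of the 8 were called. Mt1 and Mt2 were also the 2 calls among 15 glucocorticoid response genes, of which 9 were higher in both CAC mice and 1 lower (median 0.85). Glul, glutamine synthetase, did not pass the test at 337 and 1022 CPM in NOR mice and 1136 and 1306 CPM in CAC mice. Without NOR 3 the FDR was 0.263 for Mt1, 0.263 for Mt2, and 0.201 for Slc39a14. For Mt2, 58.1% of the 31-base words of its exons also occur in other genes, so its counts are uncertain, whereas Mt1 shares none. The windows before both genes are shown because the genes moved together (GRCm38.p6, plus strand, chr8:94178839-94179088 and chr8:94172368-94172617), with matches to the metal-response core TGCACNC or TGCGCNC on either strand in capitals, 1 for Mt1 (23 bases before the start) and 3 for Mt2 (223, 128, and 50 bases before). Of the 32851 windows, 21.4% held at least 1 match.
Mt1: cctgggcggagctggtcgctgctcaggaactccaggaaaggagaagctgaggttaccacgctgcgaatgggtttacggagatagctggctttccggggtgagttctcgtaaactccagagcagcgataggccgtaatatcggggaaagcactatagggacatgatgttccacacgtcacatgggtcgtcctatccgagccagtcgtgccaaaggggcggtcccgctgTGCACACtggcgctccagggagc
Mt2: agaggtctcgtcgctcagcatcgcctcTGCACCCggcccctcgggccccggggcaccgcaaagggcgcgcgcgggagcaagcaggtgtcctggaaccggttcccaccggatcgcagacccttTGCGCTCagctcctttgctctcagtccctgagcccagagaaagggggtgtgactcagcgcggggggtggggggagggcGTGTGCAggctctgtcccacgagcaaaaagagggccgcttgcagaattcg

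Of 18 glycolysis genes 6 fell and 0 rose. Eno3, the muscle enolase, stood at 4558 and 3836 CPM in NOR mice and 781 and 1501 CPM in CAC mice (log2 fold change -1.88 ± 0.33, FDR = 0.0206). Pkm, pyruvate kinase, stood at 4021 and 3289.8 CPM in NOR mice and 1165 and 1135 CPM in CAC mice (-1.67 ± 0.23, FDR = 0.00761). Tpi1, triosephosphate isomerase, stood at 2609 and 2368 CPM in NOR mice and 556 and 867 CPM in CAC mice (-1.81 ± 0.26, FDR = 0.0105), Pgk1, phosphoglycerate kinase, at 895 and 809.5 CPM in NOR mice and 279 and 391 CPM in CAC mice (-1.35 ± 0.23, FDR = 0.0207), and Pfkm, the rate-limiting muscle phosphofructokinase, at 4077 and 3757 CPM in NOR mice and 1571 and 1789 CPM in CAC mice (-1.22 ± 0.25, FDR = 0.0403). The sixth call was the second of 2 identifiers of aldolase A (Aldoa, ENSMUSG00000114515), at 29.7 and 24.3 CPM in NOR mice and 1.62 and 4.50 CPM in CAC mice (-3.14 ± 0.50, FDR = 0.0156). The identifier that holds most Aldoa reads stood at 13594 and 11069 CPM in NOR mice and 8409 and 12715 CPM in CAC mice and did not pass the test (FDR = 0.866). The list's median log2 fold change was -0.84, 5 members had a positive value, and the share called can be set beside the 1.43% of all genes that fell. The study took up this pathway on these samples, so the choice of the list is not independent evidence. With DESeq2 and with total counts, 8 were called lower, but 3 with the replicate number as a block and 1 with the 8 BALB/c-labelled libraries alone. Each of the 6 calls was lost in at least 1 omission, at the most with an FDR of 0.289 for Pfkm without NOR 3.

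Glycogen metabolism showed the same direction in the genes that break glycogen down. Pgm2, a phosphoglucomutase, stood at 926 and 817 CPM in NOR mice and 157 and 196 CPM in CAC mice (log2 fold change -2.30 ± 0.22, FDR = 0.00145), and its call remained without any 1 of the 4 libraries (FDR at most 0.0368). Pygm, the muscle glycogen phosphorylase that releases glucose 1-phosphate, stood at 4036 and 3709 CPM in NOR mice and 1394 and 1639 CPM in CAC mice (-1.35 ± 0.26, FDR = 0.0295). The subunits of phosphorylase kinase, which activates Pygm, fell as well, Phkg1 (the catalytic subunit) from 621 and 513 CPM to 146 and 105 CPM, Phka1 from 592 and 569.7 CPM to 122 and 185 CPM, and Phkb from 349.7 and 327 CPM to 164 and 132 CPM, with FDR values of 0.016, 0.0223, and 0.0245. Ugp2, which makes UDP-glucose for glycogen synthesis, lay in the other direction at 380.0 and 354 CPM in NOR mice and 693 and 819 CPM in CAC mice (FDR = 0.154). In total 5 of 14 members fell and 0 rose, with a median of -0.33 and beside 1.43% and 0.364% of all genes. With the 8 BALB/c-labelled libraries alone, and with the replicate number as a block, 3 were called lower, whereas DESeq2 and total counts each called 2 higher beside 5 lower. The 4 calls other than Pgm2 were lost in omissions, with an FDR of up to 0.222 (Pygm without NOR 3). Of 8 genes of ketone body oxidation 0 were called (3 had an unadjusted p under 0.05, and DESeq2 called 2 lower). Oxct1, its rate-limiting enzyme, stood at 316 and 304 CPM in NOR mice and 90.6 and 186 CPM in CAC mice (FDR = 0.0854), and the median of the list, -0.064, turned to 0.12 with total counts. The study took up ketone bodies on these samples too.

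In the mitochondrial lists 1 of 55 respiratory chain subunits and 1 of 17 citric acid cycle enzymes fell, beside 1.43% of all genes, so that the share of the subunits lay near that of all genes. DESeq2 called 7 and 5 lower. Cox7a1, a muscle subunit of cytochrome c oxidase, stood at 54.7 and 64 CPM in NOR mice and 11.5 and 27.3 CPM in CAC mice (log2 fold change -1.61 ± 0.34, FDR = 0.041). Idh3a, of the citric acid cycle, stood at 488 and 447 CPM in NOR mice and 176 and 274 CPM in CAC mice (-1.05 ± 0.21, FDR = 0.0362). CAC 3 was the lower of the 2 CAC mice for both genes, and without it the log2 fold changes were -1.12 (FDR = 0.113) and -0.77 (FDR = 0.167). Below both NOR mice in both CAC mice were 35 of the 55 subunits and 14 of the 17 cycle enzymes, beside 26.5% of all genes, with medians of -0.38 and -0.57. Among 26 genes of fatty acid use and lipid supply 1 rose and 0 fell, with a median of 0.61 (6 were called higher with DESeq2 and 5 with total counts). That gene was Acot1, an acyl-CoA thioesterase, at 2.10 and 2.73 CPM in NOR mice and 10.9 and 16 CPM in CAC mice (2.48 ± 0.54, FDR = 0.0478), and 22.8% of its 31-base words also occur in other genes, mostly Acot2. Pdk4, the kinase that shuts off pyruvate oxidation, stood at 89.99 and 220.5 CPM in NOR mice and 558 and 1466 CPM in CAC mice (FDR = 0.0819), and the fatty acid carrier Cd36 at 282 and 416 CPM in NOR mice and 532 and 1127 CPM in CAC mice (FDR = 0.127). The 11 adipocyte markers summed to 4217 and 11208 CPM in the NOR libraries and 9058 and 5074 CPM in the CAC libraries, so their groups overlapped.

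Of the 16 members of the calcium list and the 34 of the list of thin filament, light chain, and Z-disc genes 6 were called, all lower, beside 1.43% of all genes, and 2 of them kept their call in each of the 4 omissions. Myl1, the fast alkali light chain, stood at 7126 and 6558 CPM in NOR mice and 1086 and 1055 CPM in CAC mice (log2 fold change -2.68 ± 0.29, FDR = 0.0025), and Casq1, the calcium-storing calsequestrin of fast fibers, at 3705 and 2811 CPM in NOR mice and 362 and 529 CPM in CAC mice (-2.87 ± 0.32, FDR = 0.00313). Their FDR values reached at most 0.0368 and 0.0456, both without CAC 3. Pvalb, parvalbumin, a calcium buffer of the fastest fibers, stood at 6387 and 5204 CPM in NOR mice and 1164 and 594 CPM in CAC mice (-2.72 ± 0.40, FDR = 0.0105), and its FDR was 0.0912 without NOR 3 and 0.0729 without CAC 4. Tpm1, a tropomyosin, stood at 14303 and 12769 CPM in NOR mice and 3563 and 4805 CPM in CAC mice (-1.69 ± 0.31, FDR = 0.0253). Jph2, which ties the sarcoplasmic reticulum to the plasma membrane, and Stac3, which links excitation to calcium release, fell to 148 and 195 CPM and to 71.2 and 109.7 CPM from 691 and 508 CPM and from 289.9 and 214 CPM (FDR = 0.00761 and 0.0242). In the calcium list 4 of 16 members fell and 0 rose (median -0.37, with 2 higher and 5 lower by DESeq2), and in the list of thin filament, light chain, and Z-disc genes 2 of 34 fell and 0 rose, with a median of -0.14 that turned to 0.052 with total counts, where 2 were called higher and 6 lower. Of these 34 genes 16 had a positive log2 fold change. With the 8 BALB/c-labelled libraries alone, 2 of the 16 and 1 of the 34 were called lower. Outside the lists, Myoz3 of the Z-disc, Tmod1 of the thin filament, Mylk4, Calm2, and Camk2a were also called, at 0.103, 0.388, 0.11, 0.497, and 0.316 times the NOR level. Atp2a1, the fast calcium pump, did not pass the test at 28623 and 23984 CPM in NOR mice and 19512 and 29397 CPM in CAC mice (FDR = 0.956).

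Of 8 myosin heavy chains 0 were called (3 had an unadjusted p under 0.05, and DESeq2, voom, and total counts each called 1 lower). Myh4, the fastest isoform, stood at 36643 and 33545 CPM in NOR mice and 12456 and 12487 CPM in CAC mice (log2 fold change -1.49 ± 0.35, FDR = 0.0594), and 30.4% of its 31-base words occur in other genes. Myh1 stood at 2774 and 2795 CPM in NOR mice and 2026 and 3782 CPM in CAC mice, with overlapping groups. Actc1, the cardiac actin that muscle expresses in development and regeneration, showed a far larger gap, 542 and 469.5 CPM in NOR mice and 6.38 and 6.79 CPM in CAC mice, and did not pass the test (-6.26 ± 1.51, FDR = 0.0707). The AM mice stood at 106 and 1372 CPM and the NOR mice of the LLC model at 1481 and 449 CPM. The 9 fast fiber markers summed to 90708 and 83229 CPM in NOR and 41960 and 48072 CPM in CAC, and the 7 slow fiber markers to 1082 and 1817 CPM in NOR and 803 and 2485 CPM in CAC. The fast sum, to which Myh4 contributed most in NOR, was lower in both CAC mice, whereas the slow sums overlapped. Of the 9 fast markers 7 were lower in both CAC mice, 2 had a positive log2 fold change, and 1 was called. DESeq2 and total counts each called 4 lower, and voom 2.

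In polyamine and creatine metabolism 4 of 17 members fell and 0 rose, with a median log2 fold change of -0.58 (DESeq2 called the same number lower and 1 higher, and 0 were called with the 8 BALB/c-labelled libraries alone). Of all genes, 1.43% were called lower. Amd1, S-adenosylmethionine decarboxylase, which commits to polyamine synthesis, stood at 1422 and 1185 CPM in NOR mice and 81.98 and 68.95 CPM in CAC mice (log2 fold change -4.11 ± 0.69, FDR = 0.0189). Smox, spermine oxidase, stood at 531 and 474 CPM in NOR mice and 31.7 and 31.04 CPM in CAC mice (-4.0 ± 0.60, FDR = 0.0121). Amd2 stood at 154 and 132 CPM in NOR mice and 9.06 and 15.5 CPM in CAC mice (-3.54 ± 0.62, FDR = 0.0207), but 82.8% of the 31-base words of Amd1 occur in other genes, nearly all in Amd2, so the reads of the pair cannot be assigned with certainty. Gamt, which makes creatine, stood at 17.1 and 16.8 CPM in NOR mice and 2.29 and 3.99 CPM in CAC mice (-2.43 ± 0.39, FDR = 0.0156). Creatine kinase Ckm did not pass the test at 27056 and 24521 CPM in NOR mice and 12922 and 21543 CPM in CAC mice. None of the 4 calls held in all 4 omissions, with FDR values of up to 0.128 (Amd2 without CAC 3). AM and KD mice lay between the groups for Amd1, at 514 and 933 CPM and 187 and 964 CPM.

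Among 22 genes of IGF, insulin, and myostatin signaling 1 rose and 1 fell (median 0.19). DESeq2 and total counts each called 4 higher and 1 lower. Akt1, the growth kinase, stood at 116 and 113 CPM in NOR mice and 265 and 254 CPM in CAC mice (log2 fold change 1.18 ± 0.16, FDR = 0.00703), with the AM and KD mice at 118 and 114 and at 114 and 115 CPM. Igfbp5, an IGF-binding protein, stood at 716 and 639.7 CPM in NOR mice and 99.5 and 190.2 CPM in CAC mice (-2.23 ± 0.31, FDR = 0.00761). Without NOR 3 the FDR was 0.0777 for Akt1 and 0.0738 for Igfbp5. Of 14 myogenic regulators and satellite cell genes 1 fell, namely Mef2c, at 113 and 141 CPM in NOR mice and 49.4 and 64.4 CPM in CAC mice (-1.16 ± 0.19, FDR = 0.0178), and 0 rose. The list's median of -0.11 turned to 0.086 with total counts. With the 8 BALB/c-labelled libraries alone, 1 member was called higher and 0 lower. Myog and Myf6, regulators of differentiation, lay higher in both CAC mice at 5.91 and 6.65 CPM in NOR mice and 9.24 and 22.1 CPM in CAC mice, and at 109.8 and 112 CPM in NOR mice and 228 and 243 CPM in CAC mice, without passing the test (FDR = 0.226 and 0.388).

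Of the 17 collagen chains of the list 0 were called in the main test, and 10 were called lower with DESeq2. Of the chains outside the list 6 were called, namely Col4a5, Col22a1, Col8a2, Col11a2, Col4a3, and Col24a1, which fell to between 0.147 and 0.238 times the NOR level. Of the 17 chains, 15 were lower in both CAC mice than in both NOR mice and 0 higher, 13 had an unadjusted p under 0.05 and a lower level, beside 26.5%, 24.4%, and 8.63% of all genes in this order, and the median log2 fold change was -1.45. Col1a1 and Col3a1, the main fibrillar chains, stood at 516 and 589 CPM in NOR mice and 38.3 and 59.8 CPM in CAC mice (-3.49 ± 0.91, FDR = 0.0879), and at 677 and 969.6 CPM in NOR mice and 89.3 and 97.8 CPM in CAC mice (-3.14 ± 0.96, FDR = 0.142). KD 3 resembled the CAC mice with 90.5 CPM of Col1a1, whereas KD 4 had 687 CPM. Of the 29 matrix glycoproteins and modifying enzymes of the list 0 were called (8 had an unadjusted p under 0.05, and DESeq2 called 1 higher and 5 lower), 15 were lower in both CAC mice and 5 higher, and the median was -0.48. Matrix genes outside the list were called too, among them Mfap4, Emilin3, Ltbp4, and Cilp2, at 0.146, 0.0905, 0.374, and 0.041 times the NOR level. Chad, a cartilage and tendon glycoprotein, fell from 39.2 and 35.0 CPM to 1.81 and 1.08 CPM (-4.68 ± 0.71, FDR = 0.0127) and was the 1 call among 9 tendon and cartilage markers. These markers summed to 759.8 and 666 CPM in NOR and 187 and 445 CPM in CAC, so that collagens moved with markers of tendon, and their part in the result was not tested. Without CAC 4 the FDR of Chad was 0.0876.

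Heat shock proteins, chaperones that HSF1 induces when proteins unfold, included genes higher in NOR 3 and NOR 4 than in the remaining mice. Dnajb1, an HSP40 co-chaperone, stood at 205 and 199 CPM in NOR mice and 24.6 and 24.01 CPM in CAC mice (log2 fold change -3.06 ± 0.24, FDR = 0.000344). The NOR mice of the LLC model had 13.8 and 24.7 CPM and the AM and KD mice 21.1 and 23.1 and 25.8 and 30.1 CPM, so that the CAC mice lay at the level of these and NOR 3 and NOR 4 above it. Hspa1a and Hspa1b, the inducible HSP70 genes, stood at 2317 and 2067 CPM in NOR mice and 33.7 and 79.1 CPM in CAC mice (-5.28 ± 0.96, FDR = 0.0252), and at 2477 and 2267 CPM in NOR mice and 32.7 and 66.04 CPM in CAC mice (-5.59 ± 0.98, FDR = 0.0218), against 30.7 and 32.2 and 24.2 and 35.4 CPM in the NOR mice of the LLC model. The AM mice had 24.1 and 19.3 CPM of Hspa1a and 25.3 and 19.4 CPM of Hspa1b, and the KD mice 43.8 and 285 and 39.8 and 306 CPM, so that KD 4 stood above the CAC mice. Hsp90aa1 and Dnaja1 fell from 301 and 307 CPM to 88.5 and 76.3 CPM and from 185 and 170.2 CPM to 60.9 and 56.9 CPM (FDR = 0.0183 and 0.00753). In sum, 5 of 15 members fell and 0 rose (median -0.68), beside 1.43% of all genes called lower, and DESeq2 called 6 lower and 1 higher. With the 8 BALB/c-labelled libraries alone 3 were called lower. The call of Dnajb1 held without any 1 of the 4 libraries (FDR at most 0.0129), and the other 4 were lost in omissions (FDR of up to 0.149, Hspa1a without CAC 3). Hspa1a and Hspa1b share most of their sequence (70.1% of the 31-base words of Hspa1a occur elsewhere), so the split of reads between them is uncertain. Their windows before the start are shown because they are nearly identical, with 247 of 250 bases the same, and hold 1 heat-shock core GAANNTTC each, in capitals, 104 bases before the start (GRCm38.p6, minus strand, chr17:34972157-34972406 and chr17:34959239-34959488). Of the 32851 windows, 6.69% held that core. The 2 windows of Dnajb1 held none, and the second of them lies within the annotated gene. Of the 3 windows of Dnaja1, 1 held the core, 124 bases before the start.
Hspa1a: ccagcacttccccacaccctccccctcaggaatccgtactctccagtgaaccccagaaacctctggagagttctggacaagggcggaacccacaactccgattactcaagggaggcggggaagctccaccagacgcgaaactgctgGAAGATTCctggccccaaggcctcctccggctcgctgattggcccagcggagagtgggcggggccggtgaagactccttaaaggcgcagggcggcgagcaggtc
Hspa1b: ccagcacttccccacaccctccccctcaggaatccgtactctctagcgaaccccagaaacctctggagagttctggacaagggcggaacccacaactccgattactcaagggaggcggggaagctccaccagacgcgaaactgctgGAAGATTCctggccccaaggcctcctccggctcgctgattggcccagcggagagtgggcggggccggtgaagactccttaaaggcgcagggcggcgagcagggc

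Of 16 clock genes 2 fell and 0 rose (median -0.69), beside 1.43% of all genes called lower. DESeq2 called 2 higher and 3 lower, 1 was called with the replicate number as a block, and 0 with the 8 BALB/c-labelled libraries alone. Dbp, an output gene of the circadian clock, fell from 204 and 124 CPM to 6.14 and 17.1 CPM (log2 fold change -3.81 ± 0.71, FDR = 0.0278), while the NOR mice of the LLC model had 16.5 and 26.01 CPM. The AM mice had 196 and 36.5 CPM of Dbp and the KD mice 179 and 190 CPM. Bhlhe41, a clock repressor, stood at 95.7 and 60.4 CPM in NOR mice and 15.2 and 15.1 CPM in CAC mice (-2.36 ± 0.43, FDR = 0.0242). Npas2, a partner of BMAL1, stood at 0.525 and 0.478 CPM in NOR mice and 3.74 and 3.60 CPM in CAC mice (FDR = 0.115), against 10.04 and 7.85 CPM in the NOR mice of the LLC model. The AM mice had 1.55 and 7.57 CPM of Npas2 and the KD mice 0.278 and 0.163 CPM. The hour at which muscles were taken is not given in the sources used here. Both calls were lost without NOR 3 (FDR = 0.181 and 0.196).

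**Figure D4:**
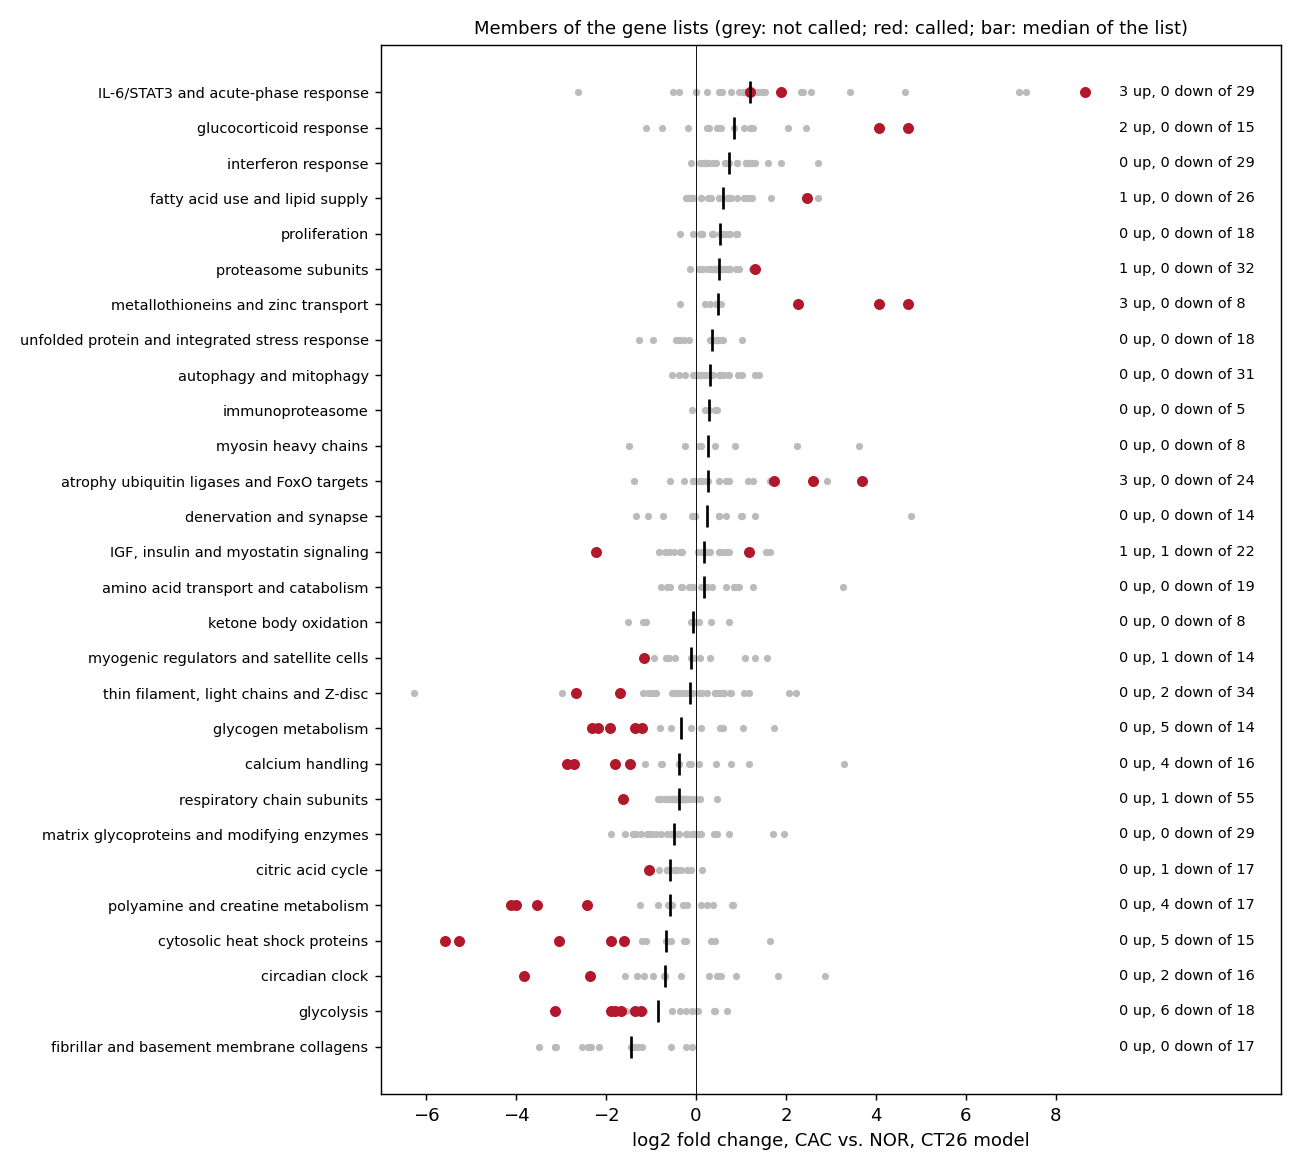
Log2 fold change (CAC against NOR, CT26 model) of each tested member of 28 gene lists, with called members in red, a bar at each list's median, and the counts of called members beside it. Glycolysis shows 6 members that fell, glycogen metabolism 5, and heat shock proteins 5, while metallothioneins and zinc transport show 3 that rose.

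Of the 281 called genes 235 are in none of the lists, which name 656 genes in all. Among the 10 largest rises and the 10 largest falls, those not yet described were as follows. Fcgr4, an activating Fc receptor of myeloid cells, stood at 0.444 and 0.478 CPM in NOR mice and 5.07 and 9.20 CPM in CAC mice (log2 fold change 3.95 ± 0.75, FDR = 0.0295). Hdc, which makes histamine, stood at 1.15 and 2.00 CPM in NOR mice and 8.54 and 17.3 CPM in CAC mice (3.03 ± 0.56, FDR = 0.0266), and Csf3r, the receptor for granulocyte colony-stimulating factor, at 2.46 and 2.39 CPM in NOR mice and 14.9 and 21.8 CPM in CAC mice (2.92 ± 0.54, FDR = 0.0269). Egln3, a prolyl hydroxylase of the hypoxia response, stood at 27 and 27.96 CPM in NOR mice and 159 and 243 CPM in CAC mice (2.87 ± 0.62, FDR = 0.0469), and Adamts4, a protease of proteoglycans, at 1.47 and 0.256 CPM in NOR mice and 10.5 and 11.04 CPM in CAC mice (3.64 ± 0.72, FDR = 0.0338). Chrna9, an acetylcholine receptor subunit, had 0 and 5 counts in NOR and 124 and 734 in CAC (FDR = 0.0464). Mdga1, an adhesion molecule of the cell surface, showed the largest fall outside the heat shock genes among called genes with a mean of at least 1 CPM, from 23.9 and 19.2 CPM to 0.572 and 0.594 CPM (-5.20 ± 0.63, FDR = 0.00402). Gdap1, a mitochondrial outer membrane protein, stood at 18.9 and 12.5 CPM in NOR mice and 0.443 and 0.751 CPM in CAC mice (-4.71 ± 0.57, FDR = 0.00402), and Foxo6, a FoxO family member, at 13.3 and 8.49 CPM in NOR mice and 0.424 and 0.782 CPM in CAC mice (-4.17 ± 0.50, FDR = 0.00402). Cnga3, Cilp2, and Mettl21e were the remaining large falls, with log2 fold changes of -4.85, -4.61, and -4.03. The calls of Mdga1, Gdap1, and Foxo6 were lost without CAC 3 alone among the 4 libraries (FDR = 0.0588, 0.0571, and 0.0564). The 6 rises were lost in at least 3 of the 4 omissions, with an FDR of up to 0.345 (Egln3 without NOR 3).

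Markers of other cells moved with the groups to different degrees. All 10 neutrophil markers had a positive log2 fold change, 9 were higher in both CAC mice, and 1 (Csf3r) was called (4 with DESeq2), with a median of 2.74. S100a8 and S100a9, abundant neutrophil proteins, stood at 3.81 and 4.57 CPM in NOR mice and 43.1 and 68.6 CPM in CAC mice, and at 6.25 and 13.5 CPM in NOR mice and 71.7 and 94.8 CPM in CAC mice (FDR = 0.186 and 0.268). AM 3 and KD 4 held as many neutrophil reads as the CAC mice, with sums of 239 and 291 CPM, against 20.5 and 16.8 CPM in AM 4 and KD 3. Erythroid markers (0 of 7 called) summed to 1132 and 1145 CPM in NOR and 4010.2 and 3609 CPM in CAC, and 5 of them were higher in both CAC mice. Macrophage markers (0 of 11 called) summed to 485 and 659 CPM and 817 and 873 CPM, and endothelial markers (0 of 7 called, 1 higher with DESeq2) to 1241 and 967 CPM and 1264 and 1618 CPM. B and plasma cell markers summed to 273 and 246 CPM in NOR, 364 CPM in CAC 3, and 30.2 CPM in CAC 4, and T cell markers to 118 and 102 CPM, 129 CPM, and 1.08 CPM. Hence the 2 CAC mice lay on either side of the NOR mice, and 0 of these 16 genes were called. The part of these cells in the results above was not tested.

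The AM and KD mice of the model show where the called genes stood with amiloride or with Rab27 knock-down tumors. Both comparisons use the CAC libraries of the first, so the comparisons are not independent and their values are set side by side. Against CAC mice, 187 genes were higher in AM mice (1.19%) and 30 lower (0.192%), and 260 were higher in KD mice (1.66%) and 86 lower (0.549%). The 57 genes that rose in CAC had a median log2 fold change of -1.16 in AM against CAC and -1.18 in KD against CAC, and the 224 that fell had 1.55 and 1.61. Against NOR, a comparison without the CAC libraries that shares the NOR libraries with the first, the medians were 0.19 and 0.13 for the 57 genes and -0.098 and -0.035 for the 224. Il6ra stood at 19.6 and 18.7 CPM in AM and 20.6 and 19.7 CPM in KD mice, near the 18.5 and 22.3 CPM of the NOR mice. Casq1 stood at 2592 and 3577 and 3197 and 2874 CPM against 3705 and 2811 CPM, and Pgm2 at 758 and 759.5 and 1059 and 790.0 CPM against 926 and 817 CPM. For Fbxo32 the levels were 217 and 201 and 221 and 154 CPM, and for Trim63 370.0 and 542 and 371 and 301 CPM, and neither gene was called against CAC (FDR from 0.132 to 0.239). Not all genes were near the NOR level. Pdk4 stood at 661 and 824 CPM in AM mice, within the range of the CAC mice, and Hdc at 8.52 and 6.30 and 7.55 and 3.41 CPM. Directly against NOR, 0 genes were higher and 4 lower in AM mice (0.0256%), namely Dnajb1, Dnaja1, Hsp90aa1, and Nle1 (chosen after its values were seen), and 0 were higher and 1 (Dnajb1) lower in KD mice (0.00639%), while 246 (1.57%) and 259 genes (1.65%) had an unadjusted p under 0.05. The count for AM against CAC fell from 217 to 8 without CAC 3, to 46 without AM 4, to 61 without AM 3, and to 127 without CAC 4, and that for KD against CAC from 346 to 45 without CAC 3, 47 without KD 3, 126 without CAC 4, and 156 without KD 4. In the muscle itself, Rab27a and Rab27b, the targets of the knock-down in the tumor cells, stood in KD mice at 15.5 and 8.92 and 0.260 and 1.03 CPM and in CAC mice at 29.9 and 15.3 and 0.701 and 0.844 CPM, which says nothing of their level in the tumor.

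The 2 CAC mice differed from each other in groups of genes. Over the 29 interferon response genes the median log2 ratio of CAC 4 to CAC 3 was -2.42, and over 18 proliferation genes -2.26. Irf7, an interferon-induced regulator, stood at 101 CPM in CAC 3, 11.4 CPM in CAC 4, and 14.5 and 16 CPM in the NOR mice, and Zbp1, a nucleic acid sensor, at 46.5, 0.954, and 3.91 and 3.29 CPM. CAC 3 alone was high in both genes. In both lists 0 genes were called in CAC against NOR, with 4 and 0 genes at an unadjusted p under 0.05 and 0 calls by DESeq2. Without CAC 4, which leaves CAC 3 as the lone CAC mouse, 5 interferon response genes were called higher, and without CAC 3 0 were. The 5 genes farthest higher in CAC 4 were Gm10260, Gm45736, Gm11127, Myh6, and Gm11361. Myh6, the cardiac alpha myosin heavy chain, stood at 6.90 CPM in CAC 3 and 204 CPM in CAC 4, and AM 3, which shares the pattern of Gm10260, had 129.8 CPM. In Gm10260 and Gm11127, 96.6% and 87.8% of the 31-base words occur in other genes. Among the lowest in CAC 4 against CAC 3 were Marco, Ms4a1, Ly6d, and Cd22, with 0 or 0.0469 CPM in CAC 4 and between 46.6 and 86.9 CPM in CAC 3. Marco is a scavenger receptor of macrophages, and Ms4a1 and Cd22 are B cell surface proteins. Without CAC 4, AM 3, AM 1, and KD 1, the 4 libraries of the on/off pattern, 109 genes were higher and 204 lower in CAC against NOR, of which 22 and 111 were among the 57 and 224. Without the 5 libraries near 0 in lymphoid genes, 76 were higher and 194 lower, with 11 and 85 shared. Both settings leave CAC 3 as the lone CAC mouse of the model, and they were added once the values were known.

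The last comparison asked whether the change in CT26 mice differed from that in the LLC mice, which share no library with it. In the LLC model 2 genes were higher and 8 lower in CAC mice (0.0128% and 0.0511%), and 9 of these 10 were also among the 281. Of the 57 genes that rose in the CT26 model 55 had a positive log2 fold change in the LLC model, and of the 224 that fell 216 had a negative one, together 96.4%, against 70.7% of all genes with the same sign in both models. The 1 fit estimates the spread of both models together, and strain labels and tumor lines differ between them. The median log2 fold changes of these genes in the LLC mice were 1.01 and -0.93. Across the 15652 genes Pearson's r of the log2 fold changes was 0.402 and Spearman's rho 0.518, given as a description, since genes are not independent. By the test of the difference itself, 1 gene differed at an FDR of at most 0.05 (0.00639%), namely Dnajb1, with a difference of -3.04 ± 0.33 (FDR = 0.031), and 406 genes (2.59%) had an unadjusted p under 0.05. Its log2 fold change in the LLC model was -0.01, with 13.8 and 24.7 CPM in NOR and 18.1 and 20.2 CPM in CAC mice. Next in order of FDR in the lower direction stood Tmem233, Prkag3, Fam19a4, and Hspa1b. Tmem233, a membrane protein of muscle, stood at 276 and 202 CPM in NOR mice and 13.1 and 19.3 CPM in CAC mice in the CT26 model and at 275 and 227 and 85.6 and 121 CPM in the LLC model (difference FDR = 0.162). Prkag3, the regulatory subunit of AMP-activated kinase in glycolytic muscle, stood at 222 and 146 CPM in NOR mice and 18.2 and 25.7 CPM in CAC mice, and at 195 and 153 and 82.3 and 77.7 CPM (difference FDR = 0.761). In the higher direction stood Itgav, Npas2, Elavl1, Zfp575, and Agpat3, none past the threshold. Itgav, an integrin chain, stood at 18.3 and 17.3 CPM in NOR mice and 22.97 and 25.3 CPM in CAC mice in the CT26 model and at 35.5 and 34.5 and 11.6 and 13.6 CPM in the LLC model (difference FDR = 0.182). Its NOR mice differed between the models more than NOR and CAC did in the CT26 model. The 1 call was lost without NOR 3, NOR 4, CAC 3, or CAC 4, where 0 genes differed and between 300 and 760 genes had an unadjusted p under 0.05. Over all 16 omissions 0 genes differed in 12, and without AM 2 the 1 gene that differed was not Dnajb1. Between the NOR mice of the models, 1 gene differed at an FDR of at most 0.05, again Dnajb1 (0.00639%), and 349 (2.23%) had an unadjusted p under 0.05.

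**Figure D5:**
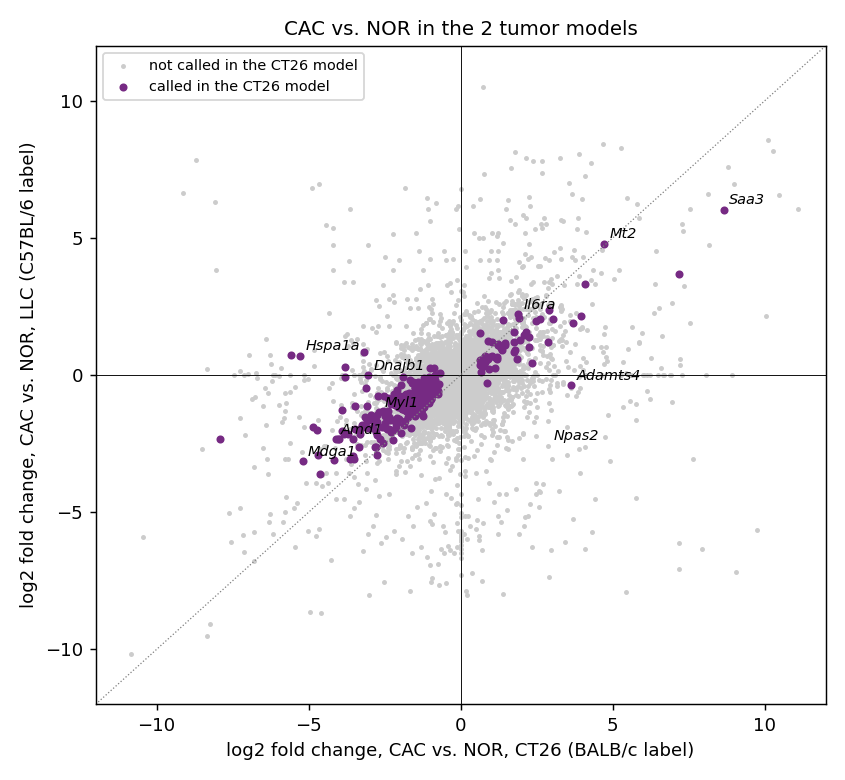
Log2 fold change of CAC against NOR in the CT26 model (x axis) and in the LLC model (y axis) for the 15652 genes tested, with the genes called in the CT26 model in color. Of the 281 called genes 271 have the same sign in both models, and Dnajb1 lies near 0 on the y axis.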

How the data were processed

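Gastrocnemius RNA of 16 mice (1 library each) was read by poly(A) RNA-seq. The authors deposited raw read counts for each gene and FPKM values, which they scaled to gene length and library size and from which no value here comes. The submitters' processing notes name fastp, Bowtie2, HISAT2, and StringTie 1.3.1 and the builds mm9 and GRCm38, with no role for either. The counting tool and strandedness are not given in the sources used here, so that reads of overlapping and antisense genes cannot be told apart. Genes were handled by identifier, and gene positions came from the GENCODE annotation of GRCm38.

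The counts of 21923 genes went into edgeR 4.0.16 under R 4.3.3 (TMM, filterByExpr with a minimum count of 10 and total of 15, glmQLFit and glmQLFTest) in 1 fit of 16 libraries and 8 groups with 8 residual degrees of freedom, which assumes 1 spread for all groups. FDR is the Benjamini-Hochberg adjusted p of that test over all 15652 genes. A gene was called when its FDR did not exceed 0.05 and its level changed 1.5-fold or more, with no fold limit for the model difference and for NOR against NOR. The SE was the log2 fold change divided by the root of the F statistic. CPM used the effective library sizes. NOISeq, named in the study's methods, was not used here. The code was tested on simulated data. Every mouse is a separate sample by the labels. The p-values rest on the spread between the 2 mice of a group, pooled over all 8 groups, with the AM, KD, and LLC mice included.

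The members and lists were chosen with earlier results of these data known. Named genes were the 10 largest rises and 10 largest falls (mean of at least 1 CPM and no overlap), per list the 2 largest changes and the 2 highest levels, the 5 genes of lowest FDR in each direction for the model difference, the 5 most different between the CAC mice in each direction (mean of at least 5 CPM), and 9 genes of the study. Not all of these are printed, and 1 gene that the rule names is not reported here. Called list members outside this rule (Tpi1, Pkm, Pgk1, Phka1, Phkb, Tpm1, Jph2, Stac3, Mef2c, Amd2, Gamt, Slc39a14, Hsp90aa1, Dnaja1, Bhlhe41, Akt1, Eif4ebp1, Sesn1, and Stat3), and the genes that show how libraries differ, were named after their values were seen. Promoter windows (250 bases before the start) came from RefSeq for GRCm38.p6. Alternatives were other scalings, filters, tools (DESeq2 1.42.0 and voom of limma 3.58.1), sets of libraries, a replicate block, other fold limits, and each library left out.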

Additional observations from a re-analysis of the deposited data

Results flagged for a closer look

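Dnajb1, an HSP40 co-chaperone, was flagged because its change from NOR to CAC differed between the models by the interaction test. The difference in log2 fold change (CT26 minus LLC) was -3.04 ± 0.33 (SE), with an FDR of 0.031 in edgeR's quasi-likelihood test, from 205 and 199 CPM in NOR and 24.6 and 24.0 CPM in CAC mice of the CT26 model. The level in NOR 3 and NOR 4 stood above that of the other 14 libraries. Groups of 2 mice are too small for a test of outlying samples.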

How the results depend on the processing

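For CAC against NOR in the CT26 model (281 genes), the number called stayed within 1.5 times under DESeq2 size factors, upper-quartile scaling, no filter, a filter on CPM, voom, robust fitting, and other fold limits. It was 776 with total counts only (527 higher and 249 lower), 1010 with DESeq2 (394 higher and 616 lower), 112 with the 8 BALB/c-labelled libraries, 657 with the 8 NOR and CAC libraries, and 0 with the 4 libraries compared, where 2578 genes had an unadjusted p under 0.05. For AM against CAC (217 genes) it was 538 with total counts only (189 higher and 349 lower), 885 with DESeq2, 94 with the 8 BALB/c-labelled libraries, 0 with only the 4 compared (1998 at an unadjusted p under 0.05), 87 without the 4 libraries of the on/off pattern, and 405 without the 5 libraries near 0 in lymphoid genes. For KD against CAC (346 genes) it was 721 with total counts only (222 higher and 499 lower), 1113 with DESeq2, 148 with the 8 BALB/c-labelled libraries, 0 with only the 4 compared (1560 at an unadjusted p under 0.05), and 104 without the 5 libraries near 0 in lymphoid genes. Without the 4 libraries of the on/off pattern, or the 5 near 0 in lymphoid genes, CAC 3 is the lone CAC mouse of the CT26 model. AM 4 is also alone in its group in the first setting and KD 4 in the second. Hence AM against CAC in the first setting, and KD against CAC in the second, set 1 mouse against 1. The counts given above for these settings cannot be compared with those from 2 mice against 2, and nothing is concluded from them. Both settings were added after the data were seen. For the difference between the models (1 gene) it was 0 with upper-quartile scaling (430 at an unadjusted p under 0.05), 0 with total counts only (507), 0 with the 8 NOR and CAC libraries (742), 0 without the on/off pattern libraries (768), 0 without the lymphoid-low libraries (878), and 34 with DESeq2. With 1 library left out, the counts ranged from 29 (without NOR 3) to 680 (without KD 2), from 8 (without CAC 3) to 550 (without KD 2), from 45 (without CAC 3) to 702 (without KD 2), and from 0 to 2, in the same order, where a lone sample is assumed to vary like the other groups. Fewer libraries leave fewer degrees of freedom for the spread. Omitting KD 1 or KD 2 raised all counts but that of the model difference. Of all pairs of a group these 2 differed the most, with a chi-square per degree of freedom of 385. The cause of the changes in count was not tested. Of 180 named genes tested, 0 were called in the opposite direction under any alternative. The sign of genes that were not called turned in 24 without CAC 3, 20 without CAC 4, 21 under each of the 2 added settings, 8 with total counts only, and at most 6 under each of the others.

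With the replicate number as a block, 132 genes were called in CAC against NOR (15 higher and 117 lower), 67 in AM against CAC, 101 in KD against CAC, and 0 in the difference between the models (351 at an unadjusted p under 0.05). Deviations of mouse 4 from mouse 3 correlated across genes at -0.047 for NOR and CAC, -0.091 for NOR and AM, 0.15 for NOR and KD, -0.39 for CAC and AM, -0.49 for CAC and KD, and 0.12 for AM and KD. By the labels, same-numbered mice share only a number, and these correlations cannot tell whether they also share a batch. The reason for the loss of calls under the block was not tested.

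The model difference could not be computed from the 8 BALB/c-labelled or the 4 compared libraries, and the AM and KD comparisons could not be computed from the 8 NOR and CAC libraries. Depth limits the genes near 0 in NOR mice, such as Saa3 and Chrna9 with at most 5 counts in a NOR library, for which no fold is given. For the other genes the number of mice, 2 per group, limits the precision.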

Other observations

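Several gene lists not described above gave 0 calls between NOR and CAC mice of the CT26 model. Of 18 genes of the unfolded protein and integrated stress response 0 were called (4 had an unadjusted p under 0.05 in edgeR's test), 9 were higher in both CAC mice and 5 lower, and the median log2 fold change was 0.36. Of 19 genes of amino acid transport and breakdown 0 were called (4 with an unadjusted p under 0.05), with a median of 0.17, and of 14 genes of denervation and the synapse 0 were called (4 with an unadjusted p under 0.05), with a median of 0.24. Chrna9 and Ache, which are not in that list, were called, Chrna9 higher and Ache, acetylcholinesterase, lower at 0.279 times the NOR level. The 5 immunoproteasome genes gave 0 calls (0 with an unadjusted p under 0.05) and a median of 0.28. Nerve and Schwann cell markers (0 of 6 called) summed to 242 and 271 CPM in the NOR libraries and 158 and 139 CPM in the CAC libraries, and 5 of the 6 were lower in both CAC mice. DESeq2 called 2 genes higher in the stress response list, 2 higher and 1 lower in the amino acid list, 1 lower in the denervation list, and 0 in the others named here. Hepatocyte markers (0 of 8 called) summed to 3.11 and 7.27 CPM and to 3.49 and 7.8 CPM.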
